A study of Mus musculus with 6 samples.

Results

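The genes described are 9 transcription factors of the osteoblast lineage: Runx2, Sp7, Dlx3, Dlx5, Dlx6, Msx1, Msx2, Mef2c and Twist1. They were picked by symbol in the array's platform annotation, each taken at its brightest transcript cluster (the probes that measure 1 transcript) over 6 arrays. A cluster was found for 8 of the 9 among 18997 genes, and Runx2 was not analysed here. Total RNA was measured on exon arrays from cultures of mouse mesenchymal stem cell lines, 1 array per clone, all labelled undifferentiated and kept untreated in normal culture. Line 6 gave clones 6.8 and 6.9, and line 12 gave 12.2 and 12.4, which all carry the genotype label Dicer-/- (n = 4). Their parents, clones 6 and 12, carry the label Dicer+/+ (n = 2). All 6 descend from marrow of the hindlimb of a Dicerflox/flox mouse 1 year of age and carry SV40 large T antigen. Only the null clones had also received Adeno-Cre-GFP, a GFP sort and a further cloning, so these steps and Dicer loss cannot be told apart. Each array is of 1 clone, the strain is not stated, and nothing says that a clone was cultured more than once, so the p-values below measure the spread between clones.

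Osteoblasts arise from mesenchymal progenitors through a cascade of transcription factors. Runx2 commits cells to the lineage, and Sp7 (osterix) is needed for them to become osteoblasts. The homeobox factors Dlx3, Dlx5 and Dlx6 are induced by bone morphogenetic protein signals and activate bone genes, while Msx1 and Msx2 bind like DNA sequences and often repress. Mef2c is a MADS-box factor known from muscle that also acts in bone cells, and Twist1 is a basic helix-loop-helix factor that holds back Runx2. Dicer cuts the precursors of microRNAs, which repress messenger RNAs.

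Promoter windows are shown for Mef2c, the factor with the lowest change, for Twist1, whose groups overlapped, and for Ibsp and Phex, bone genes reported as targets of this cascade. Each window runs from 250 bases before to 50 bases after a RefSeq start in GRCm38.p6, 5′ to 3′, and capitals mark TAATTG (a core bound by Dlx and Msx homeodomains), TAATTA and CANNTG (the E-box bound by Twist1 dimers) on either strand.
Mef2c (chr13:83503784-83504083, plus strand): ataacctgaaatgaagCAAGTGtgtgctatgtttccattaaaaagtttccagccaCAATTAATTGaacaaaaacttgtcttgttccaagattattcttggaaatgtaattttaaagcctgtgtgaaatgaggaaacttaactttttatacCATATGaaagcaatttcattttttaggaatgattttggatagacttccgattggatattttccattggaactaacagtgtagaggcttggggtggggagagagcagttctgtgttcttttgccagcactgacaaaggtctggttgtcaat
Twist1 (chr12:33957421-33957720, plus strand): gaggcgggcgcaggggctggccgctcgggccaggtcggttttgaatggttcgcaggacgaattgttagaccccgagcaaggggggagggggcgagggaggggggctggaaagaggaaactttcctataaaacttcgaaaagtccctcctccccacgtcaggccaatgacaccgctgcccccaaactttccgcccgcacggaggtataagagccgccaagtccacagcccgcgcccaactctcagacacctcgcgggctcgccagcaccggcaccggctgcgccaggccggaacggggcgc
Ibsp (chr5:104299037-104299336, plus strand): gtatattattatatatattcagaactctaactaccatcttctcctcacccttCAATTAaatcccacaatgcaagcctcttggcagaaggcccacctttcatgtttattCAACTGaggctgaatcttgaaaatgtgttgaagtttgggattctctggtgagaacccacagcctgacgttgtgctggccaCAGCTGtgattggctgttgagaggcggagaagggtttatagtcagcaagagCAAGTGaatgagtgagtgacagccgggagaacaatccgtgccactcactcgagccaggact
Phex (chrX:157415237-157415536, minus strand): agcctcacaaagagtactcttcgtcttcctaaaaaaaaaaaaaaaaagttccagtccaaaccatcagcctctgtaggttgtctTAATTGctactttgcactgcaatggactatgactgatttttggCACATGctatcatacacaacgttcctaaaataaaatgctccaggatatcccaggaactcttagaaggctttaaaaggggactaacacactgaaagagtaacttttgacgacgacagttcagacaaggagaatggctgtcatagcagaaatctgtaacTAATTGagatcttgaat
The first of 3 listed Mef2c starts held TAATTG on both strands, at 195 and 191 bases before the start, and these overlap in 1 palindrome. Ibsp held that core at 198 bases before its start and Phex at 167 bases before and 33 bases after it. Of 17 windows of 14 reported target genes, 3 held TAATTG, against 2628 of all 32851 windows of 300 bases. Those 3 were the windows of Ibsp, Phex and Bglap, so the printed target windows are not typical of the reported targets. The window of Ifitm5, for example, did not hold this core. TAATTA was in 5.29% of all windows, among them those of Msx2 and of the second Mef2c start. The Twist1 window held none of the 3, while CANNTG alone was in 72.3% of all windows. TGTGGT, a core bound by Runx factors, was in 16.8% of windows, 3 times in that of Runx2 and in none of Mef2c, Msx1, Msx2 or Twist1. The MEF2 consensus, in 0.557% of windows, was in none of the 7 windows of 5 of the factors. The Mef2c windows held 1, 10 and 4 CpG dinucleotides and that of Runx2 held 2. Msx1 had 29, Msx2 22 and Twist1 27, with a median of 7 over all windows. A match of letters is a description of the sequence, and binding was not measured.

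The deposited values are log2 RMA values, a scale on which the medians over all transcript clusters were 3.01 to 3.21 on all 6 arrays. Dicer1 itself had 4.66, 4.43, 4.47 and 4.64 in null clones 6.8, 6.9, 12.2, 12.4, against 4.48 and 4.83 in their parents 6 and 12, a change of -0.10 ± 0.14 (SE) that did not pass (limma adjusted p = 0.885). That value is for a whole transcript cluster. The deleted part was not measured on its own, so the value checks no label. The array titled as clone 6.9 has a cell type label of clone 6.8, and the title was followed. Over 5409 genes with a mean above 6, null clones correlated with each other at 0.79 to 0.92, null clones with Dicer-carrying clones at 0.74 to 0.87, and the Dicer-carrying clones with each other at 0.94 (across genes, which are not independent). Markers of stromal cells were mixed against the label. Of 9 measured, Pdgfrb, chosen with Thy1 after their values were seen, had 8.08 to 10.4 in null clones and 9.60 to 9.74 in Dicer-carrying clones. Thy1 had 2.57 to 2.74 in null clones and 2.52 to 2.61 in Dicer-carrying clones. Bone genes were mixed in the parents, which are labelled undifferentiated. Clones 6 and 12 had Ibsp at 12.1 and 12.1, Phex at 8.89 and 8.94 and Ifitm5 at 8.50 and 8.69. Mepe at 3.49 and 3.52 and Sost at 2.99 and 3.23, picked with their values in view, were low there. In such bulk samples, fewer cells of a type and less RNA per cell cannot be told apart.

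**Figure D1:**
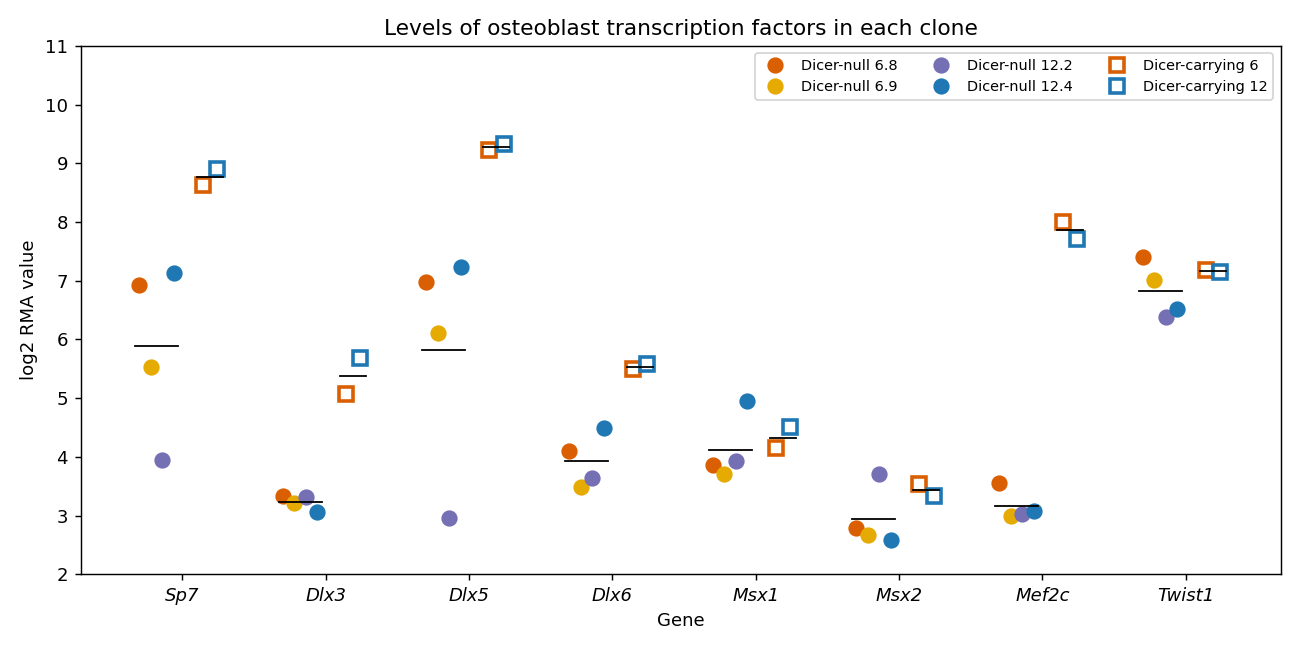
Level of each transcription factor in each clone, as log2 RMA value on the vertical axis. Filled circles are the 4 Dicer-null clones and open squares the 2 Dicer-carrying parents, and short lines are group means. Mef2c and Dlx3 sat at 2.997 to 3.56 and 3.05 to 3.33 in all null clones, near the low end of the scale, and Sp7 and Dlx5 spanned 3.18 and 4.28 log2 units among them.

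The main comparison asked which factors differed with Dicer loss. Mef2c and Dlx3 fell in the Dicer-null clones, and none of the 8 factors rose. Sp7, Dlx5 and Dlx6 also had every null clone below both parents, without passing the test. The null and Dicer-carrying values of Msx1, Msx2 and Twist1 overlapped. Thus 2 of 8 were called lower, where 0.426% of all genes were called lower and 0.163% higher, and the fit called 0.590% in either direction. All 4 null clones lay below both parents for 5 of the 8 factors, as they did for 13.9% of all genes, and above both for 0 of the 8, against 9.43% of all genes. At an unadjusted p under 0.05 stood 5 of the 8, and 13.7% of all genes. The factors were chosen with earlier results of these data known, so these counts beside all genes are a description. The median change of the 8 was -1.88 on the log2 scale, against -0.02 over all genes. By clone, the median of the 8 was -1.55 in 6.8, -1.93 in 6.9, -2.15 in 12.2 and -1.43 in 12.4. The test was limma with the parental line as a block, 3 residual degrees of freedom and Benjamini-Hochberg adjustment over all 18997 genes at 0.05, and each change is the null level less the Dicer-carrying one, with its standard error (SE).

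Mef2c had log2 levels of 3.56, 2.997, 3.02 and 3.08 in null clones 6.8, 6.9, 12.2, 12.4, against 8.01 and 7.71 in clones 6 and 12. All null clones were near the median of all transcript clusters, at the low end of the scale, and the groups lay far apart. No detection calls were used, so a level there is read as low and no fold is given. The null mean was 3.16 ± 0.26 (SD, n = 4), against 7.86 ± 0.21 (SD, n = 2) in Dicer-carrying clones. Mef2c changed by -4.70 ± 0.18 (SE) (limma adjusted p = 0.00584), and 12 of all genes had a change that low or lower. Each null clone against its own parent gave -4.45, -5.01, -4.69 and -4.64, and levels this low leave little room for the clones to differ. A second Mef2c cluster also separated the groups, with 2.59, 3.07, 2.94 and 2.58 in the null clones, against 8.48 and 7.77 in Dicer-carrying clones. The adjusted p of Mef2c in limma was 0.0609 without null clone 12.4, 0.152 without Dicer-carrying clone 6 and 0.147 without clone 12, while its change stayed between -4.81 and -4.57 with any array left out.

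**Figure D2:**
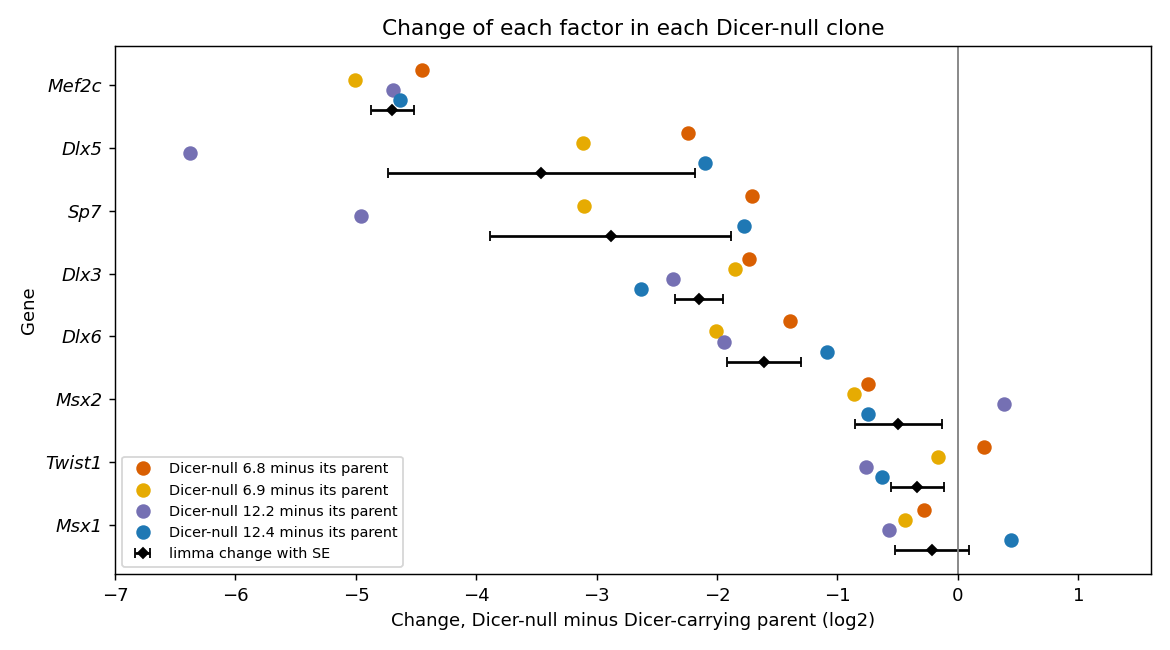
Change of each factor in each Dicer-null clone from its own Dicer-carrying parent (log2, horizontal axis), with the limma change and its SE as black diamonds. The 4 clones lie within 1 log2 unit of each other for Mef2c, Dlx3 and Dlx6, and clone 12.2 is far below the others for Dlx5 and Sp7.

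Sp7, the zinc finger factor downstream of Runx2, had 6.92, 5.52, 3.95 and 7.13 in null clones 6.8, 6.9, 12.2, 12.4, against 8.63 and 8.90 in clones 6 and 12. Every null clone was below both parents, but the null clones spanned 3.18 log2 units. The change of Sp7 was -2.88 ± 1.002 (SE) (limma adjusted p = 0.319), and the 95% interval of -5.49 to -0.27, not adjusted for the number of genes, is wide. Clone by clone the differences of Sp7 were -1.71 and -3.10 in line 6, and -4.96 and -1.77 in line 12. Without clone 12.2 the change of Sp7 was -2.13 (limma adjusted p = 0.215).

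Dlx3, a homeobox factor of bone, tooth and hair, had 3.33, 3.21, 3.32 and 3.05 in the null clones, against 5.07 and 5.68 in clones 6 and 12. The null clones, near the low end of the scale as for Mef2c, lay within 0.28 log2 units of each other, and the parents differed by 0.62. Dlx3 changed by -2.15 ± 0.20 (SE) (limma adjusted p = 0.0387). Its adjusted p was 0.0758 in limma with the mean of sibling clones as 1 sample. It was 0.0815 without clone 12.4, 0.096 without 12.2, 0.118 without 6.9, 0.124 without 6.8, 0.173 without 6 and 0.252 without 12, so each of these ended the call, and the change ran from -2.50 to -1.80.

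Dlx5, an early homeobox activator of bone genes, had 6.99, 6.11, 2.96 and 7.24 in null clones 6.8, 6.9, 12.2, 12.4, against 9.23 and 9.34 in clones 6 and 12. Clone 12.2 was at the lower end of the array's scale and the other null clones were between it and the parents. The change was -3.46 ± 1.28 (SE) (limma adjusted p = 0.348), and -2.43 without clone 12.2 at a limma adjusted p of 0.130. Clone by clone the differences of Dlx5 were -2.24, -3.12, -6.38 and -2.10.

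Dlx6, which lies close to Dlx5 on chromosome 6 in the RefSeq gene table, had 4.09, 3.48, 3.64 and 4.50 in the null clones, against 5.49 and 5.59 in clones 6 and 12. The groups did not overlap, and clone 12.2 was not set apart from the others as it was for Dlx5. The change of Dlx6 was -1.61 ± 0.31 (SE) (limma adjusted p = 0.123). Dlx6os1, a long noncoding RNA that overlaps Dlx6 and was chosen after its values were seen, had 2.99, 2.90, 2.71 and 3.21 in the null clones, against 3.65 and 3.53 in clones 6 and 12. Its change was -0.64 ± 0.17 (SE) (limma adjusted p = 0.212). Whether probes of the gene and its overlapping RNA were kept apart is not stated.

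The Msx homeobox factors did not separate the groups. Msx1 had 3.87, 3.71, 3.93 and 4.94 in null clones 6.8, 6.9, 12.2, 12.4, against 4.15 and 4.50 in clones 6 and 12. Clone 12.4 was above both parents and the other 3 null clones below both. The change of Msx1 was -0.21 ± 0.31 (SE), with a 95% interval of -1.02 to 0.59 and a limma adjusted p of 0.892. It was -0.45 without clone 12.4, -0.017 without 12.2, -0.066 without 6 and -0.36 without 12. Msx2, which acts in growth of the skull, had 2.78, 2.67, 3.71 and 2.58 in the null clones, against 3.53 and 3.33 in clones 6 and 12. Here clone 12.2 was the null clone above both parents. The change of Msx2 was -0.49 ± 0.36 (SE), with a 95% interval of -1.43 to 0.44 and a limma adjusted p of 0.692. It was -0.80 without clone 12, -0.78 without 12.2, -0.30 without 12.4 and -0.18 without 6.

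Twist1 had 7.40, 7.02, 6.38 and 6.51 in null clones 6.8, 6.9, 12.2, 12.4, against 7.18 and 7.15 in clones 6 and 12. Clone 6.8 was above both parents, 6.9 just below, and the line 12 clones lower. The change of Twist1 was -0.34 ± 0.22 (SE), with a 95% interval of -0.91 to 0.24 and a limma adjusted p of 0.644. It was -0.70 without clone 6 and 0.027 without clone 12. These intervals do not show that Twist1, Msx1 or Msx2 stayed level, and Msx2 was low in the parents too, which leaves little room for a fall.

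Whether the lines responded unlike each other was asked by the change in line 12 minus the change in line 6. That limma contrast leaves 2 residual degrees of freedom, each line having a single parental array, and 0% of genes passed it. An unadjusted p under 0.05 was seen for 569 of 18997 genes and for 0 of the 8 factors. With so small a share over all genes, that count does not set the factors apart. The difference was 0.07 for Mef2c, with a 95% interval of -1.11 to 1.25, and -0.70 for Dlx3, with one of -1.48 to 0.08. It was -1.56 for Dlx5, but siblings 12.2 and 12.4 differed by 4.28 log2 units in that gene, the widest gap among the null clones. Without 12.2 the difference for Dlx5 was 0.58, and without 12.4 it was -3.70. For Sp7 it was -0.96, with 0.63 without 12.2 and -2.55 without 12.4.

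**Figure D3:**
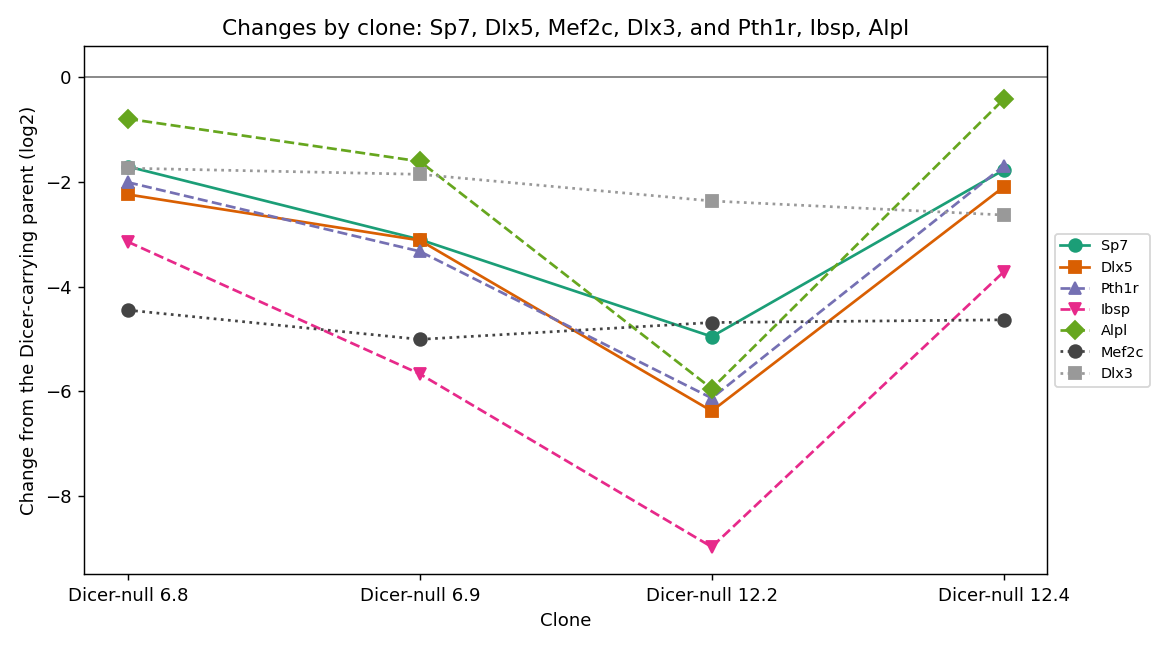
Change of 7 genes from the Dicer-carrying parent (log2, vertical axis) in each of the 4 Dicer-null clones, with lines joining the points of a gene. Sp7, Dlx5, Pth1r, Ibsp and Alpl are lowest in clone 12.2, while Mef2c and Dlx3 were near the low end of the scale in every null clone and so had little room to vary. Pth1r and Ibsp were picked by likeness to Sp7, and Alpl with its values in view.

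Among the null clones, Sp7 and Dlx5 had the same order of levels, 12.2 lowest, then 6.9, 6.8 and 12.4, and Mef2c, Dlx3 and Dlx6 did not share it. The genes most like each factor were the 3 with the highest Pearson correlation over the 6 arrays among genes that spanned 2 log2 units or more, given as a description since the genotypes form separate groups of arrays. Pth1r, the receptor of parathyroid hormone, was the most alike to both Sp7 and Dlx5, at 0.994 each. Its levels were 6.88, 5.56, 3.01 and 7.45 in null clones 6.8, 6.9, 12.2, 12.4, against 8.89 and 9.14 in clones 6 and 12. Next for Sp7 were Ibsp and Yif1a, and for Dlx5 they were Lmo7 and Clip3. Ibsp, the bone sialoprotein whose promoter window is given above, had 8.96, 6.43, 3.08 and 8.34, against 12.1 and 12.1 in clones 6 and 12. Alpl, the alkaline phosphatase of mineralising cells, was chosen after its values were seen and had 11.1, 10.3, 5.99 and 11.5, against 11.9 and 11.9 in clones 6 and 12. In both genes clone 12.2 was the lowest. Pth1r and Ibsp were picked by likeness and Alpl with its values in view, so this shared low point follows from the choice. It is no separate result. The stromal marker Pdgfrb was also lowest in clone 12.2 among the null clones, at 8.08, while Msx2 was highest there, at 3.71.

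The pattern of Mef2c was most closely matched by Galnt3, a glycosyltransferase that protects FGF23, at 0.999, by Rerg at 0.999 and by Col11a2 at 0.998. Galnt3 had 3.48, 2.78, 2.68 and 2.73 in the null clones, against 7.99 and 7.63 in clones 6 and 12. Dlx3 was most like Vldlr, Bmp8a and Prss35, at 0.999, 0.998 and 0.997. The 3 genes matched to Mef2c had a limma adjusted p of 0.00843, and those matched to Dlx3 one of 0.0305. Genes picked by likeness to these factors share their split of the groups, so these p-values follow from the choice and are no separate result. Dlx6 was most like Myom1 and the smooth muscle actin gene Actg2, at 0.996 and 0.994, and the sphingomyelinase Smpd3, at 0.988. No gene was on more than 1 of these lists apart from Pth1r. For Mef2c and Dlx3 the likeness lies mainly in low null clones set against higher parents.

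**Figure D4:**
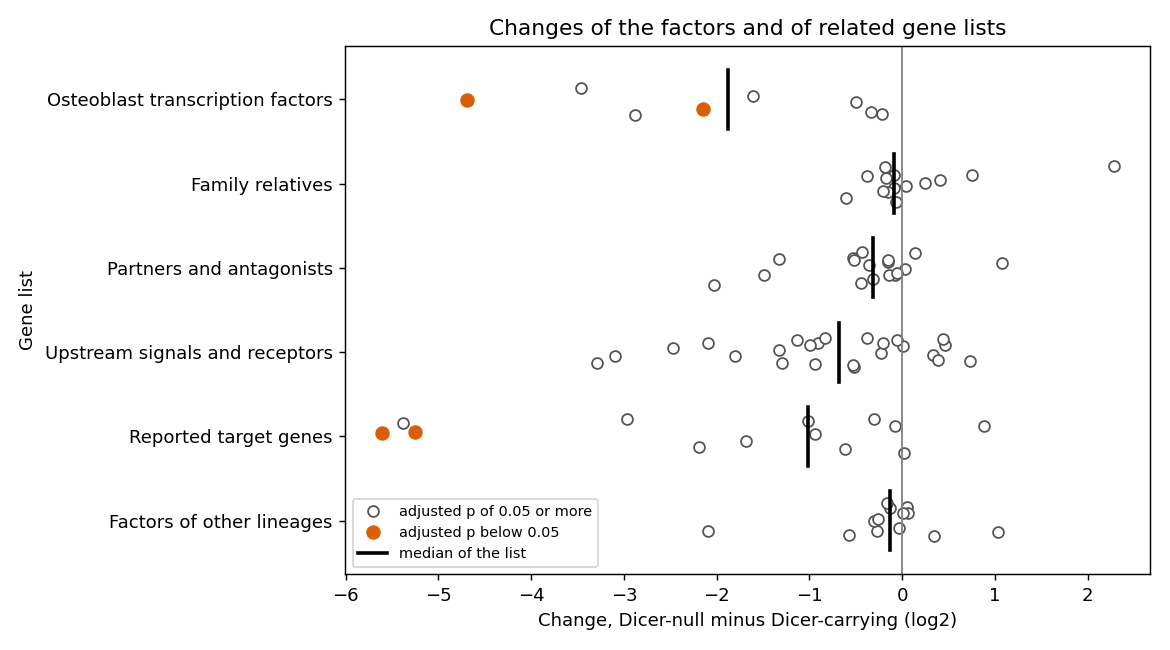
Changes in Dicer-null clones (log2, horizontal axis) of the 8 factors and of 5 related gene lists, 1 point per gene, filled where the adjusted p was below 0.05, with a line at the median. Medians run from -1.88 in the osteoblast factors to -0.09 in their family relatives.

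Relatives of the factors were set beside them. Of 14 measured, 0 passed in either direction in limma, 2 had an unadjusted p under 0.05 (13.7% of all genes did), and the median change was -0.09, so this list was near the values of all genes. Twist2, a close relative of Twist1 that also restrains osteoblast maturation, had the largest change of these. Its levels were 5.33, 6.94, 6.63 and 6.48 in null clones 6.8, 6.9, 12.2, 12.4, against 4.00 and 4.13 in clones 6 and 12. All null clones were above both parents, with a difference of 2.28 ± 0.47 (SE) and a limma adjusted p of 0.135. Picked with their values in view were Mef2a at -0.37 ± 0.19 (SE) and Mef2d at -0.07 ± 0.29. Picked likewise, Dlx1 had a change of -0.08 ± 0.31, Dlx2 one of -0.18 ± 0.27 and Runx1 one of 0.75 ± 0.21 (limma adjusted p = 0.232).

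Partners, coactivators and antagonists had 17 of 18 members measured, and 0 passed in limma, with 4 at an unadjusted p under 0.05, against 13.7% of all genes, and a median of -0.32. The largest change was that of Zfp521, a zinc finger antagonist of Runx2, which had 2.54, 2.44, 2.59 and 2.38 in the null clones, against 5.51 and 3.51 in clones 6 and 12. Its parents differed by more than 2 log2 units, and its change was -2.03 ± 0.47 (SE) (limma adjusted p = 0.169). Cbfb, the partner subunit of Runx factors, was chosen after its values were seen and had a change of -0.07 ± 0.18. Id2 and Id3, inhibitors of helix-loop-helix factors chosen likewise, had 1.08 ± 0.17 and -1.49 ± 0.26, with adjusted p of 0.0893 and 0.105 in limma.

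Of 24 measured genes of upstream signals and receptors, 0 passed in limma, 9 had an unadjusted p under 0.05, against 13.7% of all genes, and the median was -0.68. In 13 of them every null clone was below both parents and in 1 above, against 13.9% and 9.43% of all genes. Pth1r had the largest change of these, at -3.29 ± 1.33 (SE) (limma adjusted p = 0.388). Of 13 measured bone genes reported as targets of these factors, 2 were called lower and 0 higher in limma, with a median of -1.01. Over all genes, 0.426% were called lower and 0.163% higher. In 10 of the 13 every null clone was below both parents and in 0 above, against 13.9% and 9.43% of all genes. An unadjusted p under 0.05 was seen for 7, against 13.7% of all genes. The 2 called lower were Ifitm5, an osteoblast membrane protein, and Phex, an endopeptidase of phosphate handling. Ifitm5 had 3.09, 2.91, 2.94 and 2.99 in the null clones, against 8.50 and 8.69 in clones 6 and 12. Phex had 3.93, 3.84, 3.43 and 3.46, against 8.89 and 8.94 in clones 6 and 12. Both were low in every null clone, and their adjusted p in limma was 0.00225 and 0.00476.

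Transcription factors of other mesenchymal lineages had a median of -0.13, with 0 of 13 past the threshold in limma and 2 at an unadjusted p under 0.05, near the 13.7% of all genes. Scx, a tendon factor, had the largest change, with 4.40, 4.26, 3.23 and 3.62 in null clones 6.8, 6.9, 12.2, 12.4, against 5.84 and 6.09 in clones 6 and 12, and a limma adjusted p of 0.0778. Marker lists of cell types were summed as log2 values per array. Stromal markers (9 of 10 measured) summed to 52.9 to 60.0 in null and 52.4 to 54.2 in Dicer-carrying clones, with Vcam1 the largest change at 3.16 ± 0.37 (SE). Smooth muscle markers (6 of 6) summed to 32.8 to 40.4 in null clones, against 40.6 to 45.6 in Dicer-carrying clones, with Actg2 at -2.64 ± 0.62. Chondrocyte markers (7 of 7) summed to 20.3 to 21.6 in null clones, against 23.8 to 24.4 in Dicer-carrying clones, with Col11a1 at -1.57 ± 0.35. Both sums thus lay lower in every null clone, but the smooth muscle sums nearly met, at 40.4 and 40.6. Every null clone was below both parents for 1 of the 6 smooth muscle markers and 4 of the 7 chondrocyte markers. Acan, Col9a1, Col10a1, Comp and Matn1 did not exceed 3.262 on any array, near the low end of the scale. The parents differed in Col11a1, with 5.61 in clone 6 and 3.755 in clone 12. Its change was -2.02 and -2.50 in the line 6 clones, and -0.87 and -0.88 in the line 12 clones. The part of these 2 lists in the result was not tested. Adipocyte markers (5 of 5) summed to 15.2 to 22.2 in null clones, against 19.7 to 21.6 in Dicer-carrying clones, with Lpl at -1.08 ± 1.19. Skeletal muscle markers (4 of 5) summed to 15.6 to 16.2 in null clones, against 15.6 to 16.4 in Dicer-carrying clones, with Acta1 at 0.31 ± 0.21. Haematopoietic markers (5 of 7) summed to 14.1 to 15.0 in null clones, against 14.2 to 14.6 in Dicer-carrying clones, with Cd68 at 0.27 ± 0.22. Endothelial markers (5 of 5) summed to 13.1 to 13.9 in null clones, against 13.6 to 13.9 in Dicer-carrying clones, with Egfl7 at -0.25 ± 0.14. Osteoclast markers (4 of 4) summed to 10.5 to 11.5 in null clones, against 10.6 to 11.7 in Dicer-carrying clones, with Ctsk at -0.25 ± 0.41. No marker of these last 3 lists exceeded a log2 level of 4.08 on any array, and of all the marker lists 0 genes passed in limma.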

How the data were processed

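RNA of 6 clones was hybridised to Affymetrix exon arrays after a whole-transcript sense labelling, per the labels' protocols. The authors deposited log2 values for 44343 transcript clusters. Partek 6.5 and RMA are named, without role or order, per the submitters' processing notes. Because RMA gives all arrays a common distribution, a shift in the whole RNA content of a cell is removed. The build behind the clusters is not given in the sources used, so no array coordinates are printed. Precision is limited by the number of arrays.

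Clusters with 1 gene (22781) were named from the platform annotation, updated by Entrez identifier to RefSeq of GRCm38.p6 (22485 matched), and 2085 with several genes were left out, as were 19477 with none listed. Each of 18997 genes kept its brightest cluster. The fit was run in R 4.3.3 with limma 3.58.1, taking the parental line as a block because the series text derives each null clone from a Dicer-carrying one. As a random block, the line gave a consensus correlation of -0.13. The fit was tested on simulated data. Promoter sequences are RefSeq's.

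The factors and gene lists were chosen with earlier results of these data known. Genes named were all factors, Dicer1, the called members of each list (up to 4) or else its largest change, and the genes most alike. Pdgfrb, Thy1, Mepe, Sost, Mef2a, Mef2d, Dlx1, Dlx2, Runx1, Cbfb, Id2, Id3, Alpl, Dlx6os1, Sdhaf3, Wnt5a and Ptch1 fall outside this rule and were chosen after their values were seen. Alternatives were no block, a random block, sibling means, each array left out, quantile normalisation, centring, mean of clusters, a filter at a log2 value of 4, and trend with robust moderation.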

Additional observations from a re-analysis of the deposited data

Results flagged for a closer look

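Levels of 35 named genes in the 4 null clones were put to Dixon's test (95% level), and it set 3 values apart. By chance about 1 in 20 groups would be so marked. Mef2c had a log2 level of 3.56 in clone 6.8, against 2.997 to 3.08 in the other null clones. Galnt3, the gene most like Mef2c over the arrays, had 3.48 in the same clone, against 2.68 to 2.78 in the others. Because Galnt3 was picked by that likeness over the same arrays, its mark is no separate observation. Ctsk, a protease of osteoclasts, had 3.88 in clone 12.4, against 2.48 to 2.67 in the other null clones, and its parents had 2.70 in clone 6 and 3.63 in clone 12.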

How the results depend on the processing

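The count of genes past the threshold, 112 with the parental block, was 220 with no replicate block, 233 with trend and robust moderation and 15 with the mean of sibling clones, and 0 to 17 with an array left out (0 without clone 6 or clone 12, 12 without 6.8, 13 without 6.9, 17 without 12.2 and 2 without 12.4; 1654 and 1493 genes had an unadjusted p under 0.05 in limma without clone 6 and without clone 12). The count of the 8 factors, 2 throughout the other settings, was 1 with the mean of sibling clones, where Dlx3 missed, and 0 to 1 with an array left out. Fewer samples entered those fits, and each sibling mean is 1 sample. The median change of the factors kept its direction and moved by less than its spread over null clones in all 14 settings. Of 111 changes of single factors under these settings, 110 kept their direction, and the exception was Twist1, which ran from -0.70 to 0.027 with an array left out (0.027 without Dicer-carrying clone 12). Msx2 was itself among the genes the filter on dim values removed. Leaving out each null clone in turn, the difference in response between line 12 and line 6 ran from -3.70 to 0.58 for Dlx5 and from -2.55 to 0.63 for Sp7. It ran from -0.24 to 0.61 for Dlx6 (-0.12 without 6.9), from -0.21 to 0.80 for Msx1 and from -0.21 to 0.35 for Mef2c, so none of these has a settled sign, and the cause was not tested.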

Other observations

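Sdhaf3 neighbours Dlx5 in the RefSeq gene table and was picked with its values in view. It had log2 levels of 3.11, 3.02, 3.69 and 4.12 in null clones 6.8, 6.9, 12.2, 12.4, against 4.97 and 3.57 in clones 6 and 12. Its change was negative in both line 6 clones, at -1.86 and -1.95, and positive in both line 12 clones, at 0.12 and 0.56. The difference between the lines was 2.24 ± 0.35 (SE) (limma adjusted p = 0.9997), so it failed the correction, and the parents alone differed by -1.40 (clone 12 minus clone 6). Wnt5a, a secreted signal among the upstream genes and like Ptch1 picked with its values in view, had 2.87, 3.92, 2.62 and 3.77 in the null clones, against 6.63 and 6.15 in clones 6 and 12, a change of -3.10 ± 0.45 (SE) (limma adjusted p = 0.0781). Ptch1, the hedgehog receptor, had a change of -2.09 ± 0.47 (limma adjusted p = 0.161), and every null clone was below both parents.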
